A study of Mus musculus with 6 samples.

Results

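The genes described here are 10 receptors, granule proteins and surface proteins of late neutrophils, namely Cxcr2, Fpr1, Fpr2, Ltb4r1, Mmp8, Mmp9, Retnlg, Ly6g, Cd177 and Padi4. They were taken as a named list and not by a cut on their values, but with earlier results of these data known. They are 10 of the 53458 genes summed from the transcript tables. All 10 passed the filter on low counts, which left 20654 genes for testing. RNA was sequenced from sorted leukemic blasts from the marrow of transplanted C57/BL6 mice with acute myeloid leukemia (AML). Every library carried Cebpa-/p30, that is, 1 allele lost and the other making only the short p30 form of the myeloid transcription factor C/EBPα. They differed in Asxl1, which encodes a chromatin regulator: 3 libraries were wild type (WT) and 3 had the G643W change in both alleles (labelled Asxl1G643W/G643W, here G643W). The sort kept CD45.2+ marrow cells with low Mac1 and low Gr1 and dropped cells with Ter119, B220 or CD3. Mac1 is the integrin made from Itgam and Itgb2, and Gr1 antibodies bind Ly6G and Ly6C, so the products of Ly6g and of Itgam were themselves part of the gate. Ages are not given in the labels, nor is it said whether each library comes from its own primary leukemia. The p-values below set the genotype difference against the spread between these libraries, some of it perhaps technical. They may therefore not speak of separate leukemias. The comparison is between Asxl1 genotypes on a shared Cebpa-mutant background, here for the end of the neutrophil programme.

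Neutrophils form their granules in waves. Primary granule proteins such as Mpo are made in promyelocytes, secondary granule proteins such as Ltf in myelocytes, and gelatinase granule proteins such as Mmp9 later still, while chemoattractant receptors such as Cxcr2 appear on cells about to leave the marrow. Full-length C/EBPα and then C/EBPε drive these steps, and blasts of AML are held before them. In sorted bulk RNA, fewer late cells and less of an RNA per cell cannot be told apart.

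The late neutrophil genes varied widely between libraries of 1 genotype, and the genotypes overlapped for each of them. Their summed level was 348, 728 and 3022 TPM (a share of all transcripts, scaled for transcript length) in WT libraries 1 to 3 and 306, 5214 and 4589 TPM in G643W libraries 1 to 3. G643W libraries 2 and 3 and WT library 3 were the highest for all 10 genes, whereas the same set of libraries was on top for 12.7% of all genes tested. WT libraries 1 and 2 and G643W library 1 were low for all of them. No gene of the 10 passed the test in either direction (edgeR, adjusted p from 0.539 to 0.715), where 0.121% of all genes tested did, 0.0533% as higher in G643W. None had an unadjusted edgeR p under 0.05 either, against 9.66% of all genes tested. DESeq2 called none of the 10 after adjustment, against 2.07% of all genes tested. Only Ltb4r1 had an unadjusted DESeq2 value under 0.05 (0.0478), against 12.5% of all genes tested.

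**Figure D1:**
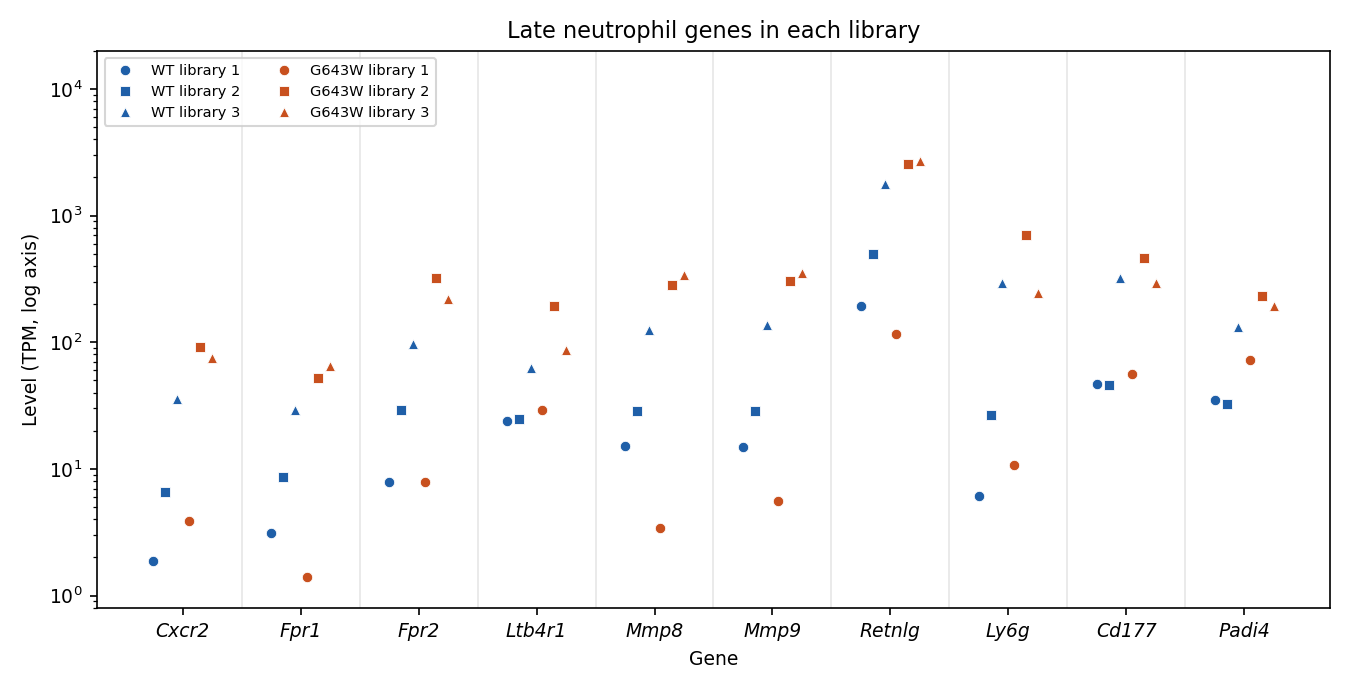
Level of each gene in each library, in TPM on a log axis; blue marks are WT and orange marks are G643W, with circles, squares and triangles for libraries 1, 2 and 3. For every gene the highest 3 marks are G643W libraries 2 and 3 and WT library 3, and the orange circle of G643W library 1 lies below WT libraries 1 and 2 for Mmp8 (3.41 TPM) and above both for Padi4 (72.2 TPM).

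Receptors that guide neutrophils towards chemoattractants were high in the same 3 libraries in both genotypes. Cxcr2 (ENSMUSG00000026180; GRCm38 chromosome 1, 74153989 to 74161246, plus strand), the receptor for the chemokines Cxcl1 and Cxcl2 that draws neutrophils out of the marrow, was at 1.87, 6.58 and 35.5 TPM in WT libraries 1 to 3 and at 3.89, 91.5 and 74.6 TPM in G643W libraries 1 to 3. In this level, summed over transcripts, G643W library 1 lay between the lower WT libraries. WT library 3 lay between them and the high G643W libraries. The log2 difference, G643W minus WT in library-scaled counts (CPM), was 1.91 ± 1.27 (SE, edgeR adjusted p = 0.592). Fpr1 (chromosome 17, 17876471 to 17883940, minus strand), which senses formylated peptides of bacteria and mitochondria, had 3.11, 8.61 and 29.2 TPM across WT and 1.39, 52.4 and 64.4 TPM across G643W. Its relative Fpr2 (chromosome 17, 17887824 to 17893952, plus strand), which also binds annexin A1 and the cathelicidin Camp, had 7.93, 29.2 and 97.5 TPM across WT and 7.89, 320 and 220 TPM across G643W. G643W library 1 was the lowest of all 6 libraries for Fpr1 and level with WT library 1 for Fpr2. Fpr2 exceeded Fpr1 in every library, by 2.55 to 6.11 times in TPM. Their log2 differences were 1.5 ± 1.25 for Fpr1 and 2.00 ± 1.30 for Fpr2 (SE, edgeR adjusted p = 0.653 and 0.587). Ltb4r1 (chromosome 14, 55765962 to 55768494, plus strand), the high-affinity receptor for leukotriene B4, had 24.0, 24.6 and 62.9 TPM across WT and 29.4, 194 and 86.8 TPM across G643W. It kept a floor near 24 TPM in its lowest libraries, and its highest library exceeded the lowest by 8.09 times, against 40.5 to 49.0 times for the other receptors. The log2 difference of Ltb4r1 was 1.45 ± 0.72 (SE, edgeR adjusted p = 0.539), the lowest adjusted p of the 10.

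The granule proteases stood lowest in G643W library 1. Mmp8, neutrophil collagenase (chromosome 9, 7558456 to 7568485, plus strand), had 15.2, 28.6 and 125 TPM across WT and 3.41, 284 and 341 TPM across G643W, a span of 99.8 times within the G643W group alone. Mmp9, gelatinase B (chromosome 2, 164940780 to 164955850, plus strand), had 14.9, 28.5 and 137 TPM across WT and 5.6, 304 and 349 TPM across G643W. The WT range of either enzyme lay wholly inside its G643W range. In TPM summed over transcripts, Mmp8 and Mmp9 were nearly equal in 5 libraries. The Mmp8 to Mmp9 ratio was 0.912 to 1.02 there and 0.609 in G643W library 1. This near equality depended on short Mmp9 transcripts. The main Mmp9 transcript, of 3175 bases, took 91.0% of the Mmp9 reads. It had 7.78, 17.5 and 87.0 TPM across WT and 4.87, 168 and 193 TPM across G643W. That was below Mmp8 in every library but G643W library 1. The log2 differences of Mmp8 and Mmp9 were 1.88 ± 1.40 and 1.68 ± 1.30 (SE, edgeR adjusted p = 0.621 and 0.634).

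Retnlg, a resistin-like secreted protein of neutrophils (chromosome 16, 48872621 to 48874496, plus strand), had by far the highest level of the 10. It was at 193, 497 and 1788 TPM across WT and at 116, 2573 and 2719 TPM across G643W (log2 difference 1.10 ± 1.16, SE, edgeR adjusted p = 0.715), and it exceeded each of the other 9 genes in all 6 libraries. Of the surface proteins, Ly6g (chromosome 15, 75155240 to 75159126, plus strand), the Ly6G antigen that defines mouse neutrophils, had 6.14, 26.8 and 294 TPM across WT and 10.8, 697 and 245 TPM across G643W. Cd177 (chromosome 7, 24743983 to 24760311, minus strand), likewise a surface protein of neutrophils, had 46.4, 46.0 and 321 TPM across WT and 55.9, 466 and 295 TPM across G643W. These were the 2 genes for which WT library 3 exceeded G643W library 3. Ly6g swung more than Cd177, with a Ly6g to Cd177 ratio of 0.132 in WT library 1 and 1.5 in G643W library 2. Padi4 (chromosome 4, 140745865 to 140774236, minus strand), the nuclear enzyme that citrullinates histones when neutrophils release chromatin, had 35.2, 32.6 and 132 TPM across WT and 72.2, 232 and 194 TPM across G643W. G643W library 1 had 2.05 and 2.21 times the Padi4 level of WT libraries 1 and 2, the only one of the 10 genes at least 2 times above both. The log2 differences of Ly6g, Cd177 and Padi4 were 1.56 ± 1.58, 1.02 ± 1.00 and 1.24 ± 0.65 (SE, edgeR adjusted p = 0.704, 0.698 and 0.542).

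By mean TPM over the 6 libraries the genes ran from Retnlg (1314 ± 1195, SD, n = 6) through Ly6g (213 ± 268), Cd177 (205 ± 180), Mmp9 (140 ± 153), Mmp8 (133 ± 147), Padi4 (116 ± 83.9), Fpr2 (114 ± 129), Ltb4r1 (70.4 ± 65.6) and Cxcr2 (35.7 ± 39.1) to Fpr1 (26.5 ± 26.9). Of neighbours in this order, Retnlg was above Ly6g and Ltb4r1 above Cxcr2 in all 6 libraries. The other neighbours changed places between libraries; Ly6g was above Cd177 in only 1 library, and Cxcr2 above Fpr1 in 4. Gaps between those neighbours were smaller than the SD over libraries. Each level sums the gene's transcripts, so short transcripts weigh in this order. A Ly6g transcript of 336 bases took 31.2% of the Ly6g reads, but 525 of the 697 TPM in G643W library 2. In CPM, Ly6g was at 347 and Cd177 at 2435 in that library.

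The genotype difference was positive for all 10 genes, as it was for 49.2% of all genes tested, but no interval excluded 0. All 10 had a log2 difference of at least 1, where 8.67% of all genes tested did, and the median was 1.53 against -0.01 over all genes tested. These genes moved together from library to library, so the 10 are not separate observations. The 95% interval was narrowest for Padi4 (-0.28 to 2.76) and widest for Ly6g (-2.16 to 5.28). In none of the 10 did the groups' CPM values separate, against 15.9% of all genes tested, 7.05% as higher in G643W. Without G643W library 2 the log2 difference of Ly6g was 0.14 and that of Cd177 0.26, while without WT library 3 they were 4.17 and 2.66, and the median over the 10 genes moved to 0.99 and 3.00 in those fits. Without G643W library 1 the median was 2.18. In that fit 7 of the 10 had an unadjusted edgeR p under 0.05, against 20.9% of all genes tested in it, and without WT library 3 the count was 4 of 10, against 14.4%. The count was 0 of 10 in each of the other 4 fits that left out a library. No gene was called in any fit that left out a library (lowest adjusted p = 0.152, edgeR, for Ltb4r1 without G643W library 1).

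**Figure D2:**
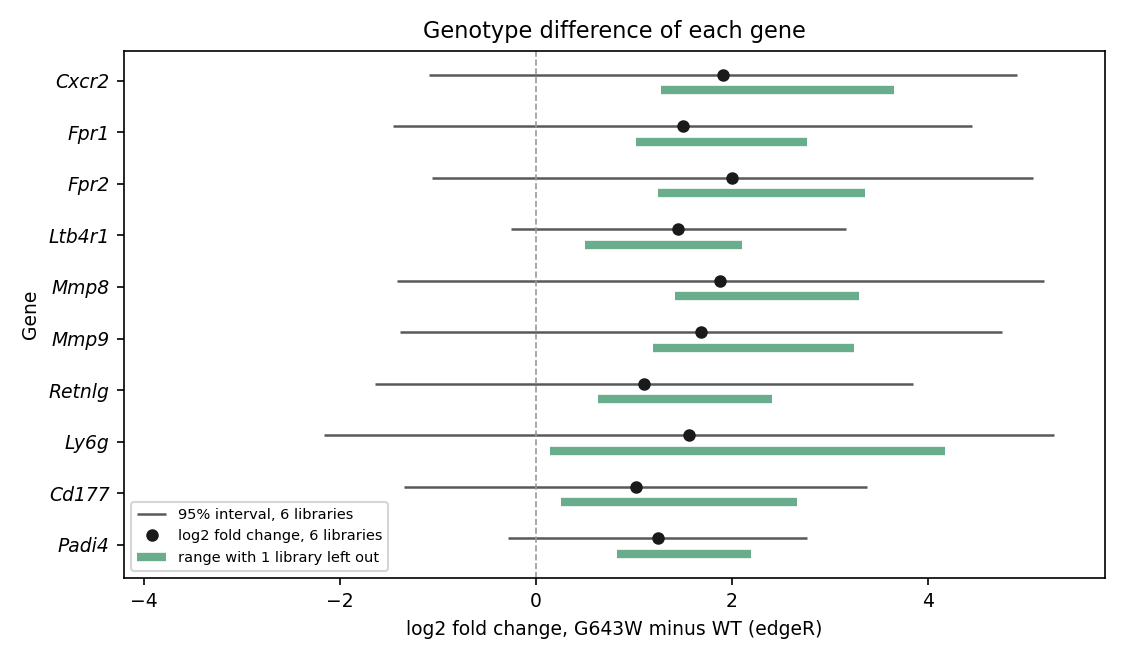
Log2 fold change of each gene (G643W minus WT, edgeR, 3 against 3 libraries) as a black point with its 95% interval as a grey line; the green bar spans the values obtained when 1 library is left out. All points lie right of 0 and all intervals cross it, and the green bar is widest for Ly6g, from 0.14 to 4.17.

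As a measure of library spread, the SD of log2 CPM over all 6 libraries was 2.77 for Ly6g, 2.65 for Mmp8, 2.38 for Fpr2, 2.34 for Mmp9, 2.31 for Cxcr2, 2.29 for Fpr1, 2.01 for Retnlg and 1.59 for Cd177, but only 1.21 for Ltb4r1 and 1.14 for Padi4. The median over all genes tested was 0.58, and the 10 genes lay between the 83.4th percentile (Padi4) and the 98.9th (Ly6g). Within the G643W group the SD exceeded that within WT for all genes but Padi4 (0.95 against 1.03). Centred profiles were most alike for Mmp9 and Fpr1, whose root mean square difference over the 6 libraries was 0.22 log2 units, and least alike for Padi4 and Mmp8 at 1.75.

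Because the genes moved together, the 250 bases before the RefSeq start (build GRCm38.p6) are shown for the pair with the widest spread, Ly6g and Mmp8, and the pair with the narrowest, Ltb4r1 and Padi4. The windows are chr15:75155011-75155260 (plus strand), chr9:7558179-7558428 (plus strand), chr14:55765712-55765961 (plus strand) and chr4:140774204-140774453 (minus strand). Each is written 5′ to 3′ on the gene's strand, and capitals mark matches, on either strand, to a C/EBP-type motif (TTGCNNAA), a PU.1-type motif (GAGGAAG), a Runx-type motif (TGTGGT) or a TATA box (TATAAA).
Ly6g: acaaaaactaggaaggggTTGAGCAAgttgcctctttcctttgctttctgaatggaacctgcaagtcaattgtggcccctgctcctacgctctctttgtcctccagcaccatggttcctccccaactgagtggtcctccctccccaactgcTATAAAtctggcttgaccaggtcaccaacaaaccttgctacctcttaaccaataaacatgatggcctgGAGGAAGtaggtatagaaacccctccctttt
Mmp8: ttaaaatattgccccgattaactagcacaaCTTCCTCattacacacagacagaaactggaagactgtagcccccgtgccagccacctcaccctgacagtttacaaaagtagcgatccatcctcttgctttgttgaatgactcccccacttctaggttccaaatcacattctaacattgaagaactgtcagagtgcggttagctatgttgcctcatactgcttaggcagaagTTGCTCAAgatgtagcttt
Ltb4r1: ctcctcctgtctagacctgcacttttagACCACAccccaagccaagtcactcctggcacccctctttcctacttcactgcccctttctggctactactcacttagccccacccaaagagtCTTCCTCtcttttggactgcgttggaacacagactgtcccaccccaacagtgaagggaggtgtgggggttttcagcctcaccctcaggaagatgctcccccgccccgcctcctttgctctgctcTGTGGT
Padi4: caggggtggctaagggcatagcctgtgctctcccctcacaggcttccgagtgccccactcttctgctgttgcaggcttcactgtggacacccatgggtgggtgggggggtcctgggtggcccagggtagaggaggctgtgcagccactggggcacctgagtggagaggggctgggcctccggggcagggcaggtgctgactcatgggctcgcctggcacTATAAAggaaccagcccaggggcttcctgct
Both genes with the widest spread held 1 C/EBP-type and 1 PU.1-type match. Fpr2, Cxcr2 and Fpr1, whose spread was also wide, held no match of either type, and a link of motifs to spread was not tested. The C/EBP-type match of Mmp8 spans bases 19 to 12 before the start, and the PU.1-type match of Ly6g bases 31 to 25. Ltb4r1 held 1 PU.1-type and 2 Runx-type matches, and Padi4 only a TATA box, 31 to 26 bases before its start. Windows were found in RefSeq for 9 of the 10 genes. A C/EBP-type match was in 3 of these (Mmp8, Retnlg and Ly6g) and in 9.57% of all 32817 windows of the same length. PU.1-type matches were in 3 of 9 (10.6% of all windows), Runx-type in 1 of 9 (14.0%) and the letters TATAAA in 5 of 9 (12.4%), namely Fpr1, Fpr2, Ly6g, Cd177 and Padi4. The TATAAA match began 227 bases before the start in Fpr1, 130 in Fpr2 and 99 in Ly6g, but 40 in Cd177 and 31 in Padi4. The motifs do not overlap one another in these windows, and a match is a stretch of letters, not a shown binding site.

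The late genes were set beside the earlier granule waves, each list given as its mean log2 CPM relative to the mean of the 6 libraries. For the 10 late genes this mean was -2.04, -0.88 and 1.15 across WT, and -2.34, 2.32 and 1.78 across G643W, in the order of library number. Of 8 secondary granule genes, the mean lay at -2.10, -0.63 and 0.70 in WT and at -1.29, 2.18 and 1.15 in G643W, so the order of libraries differed at the bottom, where G643W library 1 was above WT library 1. For 8 primary granule genes the picture was another: -1.36, 0.28 and 0.74 in WT and 1.15, -1.08 and 0.26 in G643W. G643W library 1, the lowest of all in the late genes, was the highest of all in the primary granule genes, and G643W library 2, the highest in the late genes, was second lowest there. S100a9, a calcium-binding protein abundant in neutrophils, had 936, 5352 and 26887 TPM across WT and 7290, 57622 and 44084 TPM across G643W. Mpo, myeloperoxidase, had 2181 TPM in G643W library 1 and 173 TPM in G643W library 2. No gene passed the test among the 8 primary granule genes (median log2 difference 0.13), the 8 secondary granule genes (1.28) or the 7 genes for S100 proteins and stefins (4.01), by edgeR at an adjusted p under 0.05. At an unadjusted edgeR p under 0.05 there were 0, 0 and 4 genes, against 9.66% of all genes tested. The lowest p of each list belonged to Ctsc (log2 difference -0.69 ± 0.45), Olfm4 (2.20 ± 1.03) and Stfa2l1 (4.68 ± 1.58; SE, edgeR adjusted p = 0.587, 0.534 and 0.493), and Chil3, the most abundant secondary granule gene, stood at -0.07 ± 0.51 (adjusted p = 0.963).

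**Figure D3:**
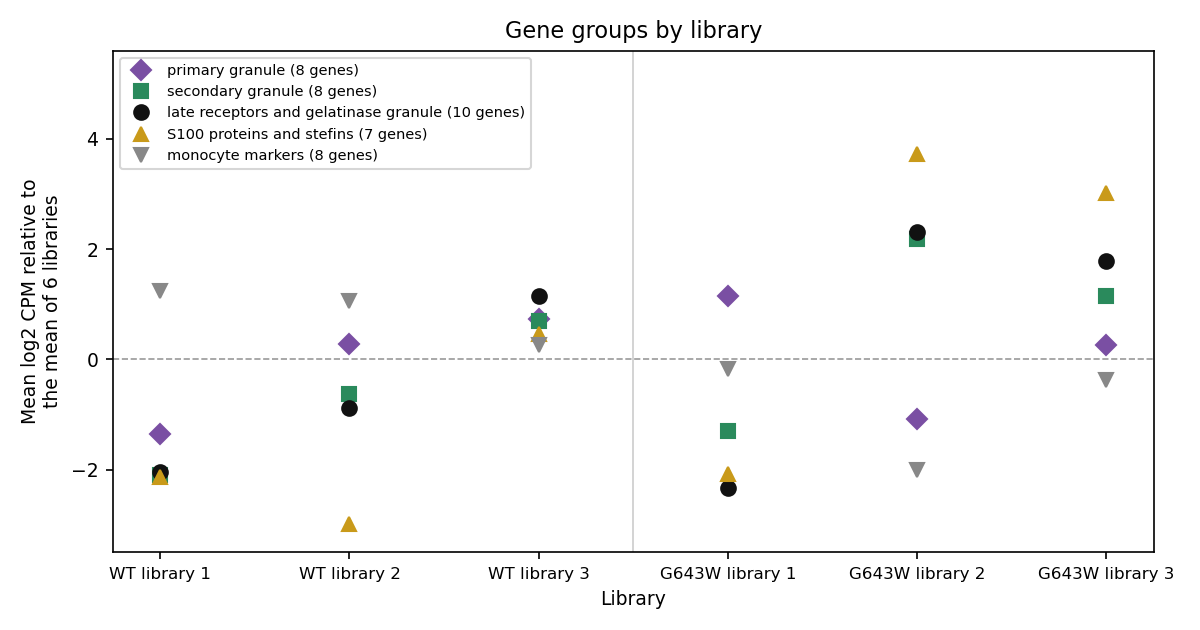
Mean log2 CPM of each gene list relative to its mean over the 6 libraries (vertical axis) in each library (horizontal axis; WT left, G643W right of the line). The black circles of the late genes follow the green squares of the secondary granule genes, while the purple diamonds of the primary granule genes are highest in G643W library 1 (1.15), where the black circle is lowest (-2.34).

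The late genes did not follow Ltf in fixed proportion. Ltf, the secondary granule protein lactoferrin, had 450, 2269 and 20509 TPM across WT and 1046, 40602 and 17937 TPM across G643W. Per 1000 TPM of Ltf, Mmp8 stood at 33.7, 12.6 and 6.08 TPM across WT and at 3.26, 6.98 and 19.0 TPM across G643W. Padi4 stood at 78.3, 14.4 and 6.45 TPM per 1000 TPM of Ltf in WT and at 69.0, 5.7 and 10.8 TPM across G643W, so in G643W library 1 Mmp8 was at its lowest and Padi4 near its highest relative to Ltf. Ly6g kept the most even proportion to Ltf, from 10.3 to 17.2 TPM per 1000. These are single libraries, and no test was made between them.

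The 8 protein-coding genes nearest in profile were taken out of 9824 with at least 5 CPM on average. They were Cd9 (root mean square difference 0.17 log2 units from the mean of the 10 genes), C5ar1 (0.26), Cd101 (0.26), Aqp9 (0.31), Lcn2 (0.33), Hdc (0.36), Arg2 (0.37) and Slc2a3 (0.38), where the median of the genes compared was 1.88. C5ar1, the receptor for complement C5a, had 2.5, 3.27 and 16.7 TPM across WT and 2.55, 47.5 and 38.4 TPM across G643W. Cd101, a surface protein of mature neutrophils, had 0.528, 0.675 and 2.76 TPM across WT and 0.283, 6.71 and 5.61 TPM across G643W. None of the 8 passed the test (edgeR adjusted p from 0.560 to 0.714).

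Partners of these genes were read from lists of their pathways. Across 14 pathway and stage lists, 100 genes were tested and edgeR called none. At an unadjusted edgeR p under 0.05 there were 9 of the 100, against 9.66% of all genes tested. DESeq2 called 4, against 2.07% of all genes tested. They were the stefins Stfa1, Stfa2, Stfa2l1 and BC100530, all with a positive log2 difference. The genotypes overlapped for each of these stefins, with G643W library 1 inside the WT range. Stfa1 had 367, 97.8 and 1233 TPM across WT and 363, 15805 and 11821 TPM across G643W. All 4 are relatives on chromosome 16, and they are not separate observations. Of 25 other receptors of mature neutrophils 24 were tested. A positive log2 difference was found for 22 of them (median 1.16), against 49.2% of all genes tested. Il1r2, a decoy receptor for interleukin 1, had 13.4, 13.9 and 30.2 TPM across WT and 42.1, 53.0 and 57.8 TPM across G643W, with no overlap (log2 difference 1.31 ± 0.33, SE, edgeR adjusted p = 0.414). Pglyrp1, an antibacterial granule protein, had 64.8, 132 and 480 TPM across WT and 228, 1060 and 873 TPM across G643W.

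Among ligands of Cxcr2, Cxcl1, Cxcl5 and Ppbp did not pass the filter, with at most 12 reads in any library. Cxcl2 had 6.10, 4.44 and 4.41 TPM across WT and 1.00, 33.7 and 43.2 TPM across G643W (log2 difference 2.49 ± 1.01, SE, edgeR adjusted p = 0.511), and was called without G643W library 1 (edgeR adjusted p = 0.0421). Cxcl3 stayed under 0.4 TPM in every library and was higher in all G643W libraries (edgeR adjusted p = 0.452). Cxcr4, the receptor that retains cells in the marrow against Cxcr2, was even, at 102 to 125 TPM in WT and 106 to 122 TPM across G643W (log2 difference -0.14 ± 0.21, SE, edgeR adjusted p = 0.806). Itga4, an integrin that holds cells in the marrow, stood at -0.58 ± 0.32 (edgeR adjusted p = 0.561). Of the ligands of Fpr2, Anxa1 (annexin A1) had 417, 919 and 3813 TPM across WT and 1080, 9214 and 6469 TPM across G643W, and Camp had 54.4, 760 and 3682 TPM across WT and 928, 14774 and 5483 TPM across G643W. In the synthesis of leukotriene B4, Alox5 (arachidonate 5-lipoxygenase) had 32.5 to 184 TPM over the 6 libraries and was lowest in G643W library 1, whereas its helper Alox5ap was at 624 to 1302 TPM with no clear split. Pla2g4a, which frees arachidonate, had 13.5, 25.5 and 38.5 TPM across WT and 41.6, 57.3 and 60.6 TPM across G643W with the groups apart in TPM but overlapping in CPM (log2 difference 0.79 ± 0.44, SE, edgeR adjusted p = 0.561). Of the metalloproteinase inhibitors, Timp1, which binds Mmp9, was at most 0.209 TPM in any library. Timp2 had 12.3, 5.45 and 11.4 TPM across WT and 6.93, 31.6 and 31.9 TPM across G643W (edgeR adjusted p = 0.534).

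Some relatives or chromosome neighbours of the 10 genes were nearly silent, while others were well expressed. Cxcr1, 30.5 kb from Cxcr2, had at most 0.0373 TPM. Fpr3, whose span overlaps that of Fpr2 on the same strand, had at most 4 reads in any library, and Fpr-rs3, Fpr-rs6 and Fpr-rs7 had no reads at all. Ltb4r2, the low-affinity leukotriene B4 receptor 823 bases from Ltb4r1, had 0.195 to 0.52 TPM. Retnla and Retnlb, 28.2 and 53.7 kb from Retnlg, did not exceed 1.04 TPM, nor did Retn. Mmp27, 2.91 kb from Mmp8, was at 0.0166, 0.0318 and 0.107 TPM across WT and 0.0196, 0.587 and 0.554 TPM across G643W, so its order of libraries was close to that of Mmp8 at a far lower level. Ceacam10, 16.9 kb from Cd177, had 1.21, 4.38 and 32.3 TPM across WT and 2.57, 57.5 and 53.8 TPM across G643W. Mmp25, a membrane-bound metalloproteinase of neutrophils, had 1.22, 2.02 and 13.9 TPM across WT and 0.611, 25.0 and 21.2 TPM across G643W, again with G643W library 1 lowest. Padi2 and Ly6c2 did not follow this order. Padi2, 132 kb from Padi4 and also a peptidylarginine deiminase, had 33.6, 23.5 and 21.1 TPM across WT and 25.4, 1.69 and 13 TPM across G643W (log2 difference -1.20 ± 0.58, SE, edgeR adjusted p = 0.537), lowest where Padi4 was highest. Ly6c2, 43.3 kb from Ly6g and the other antigen that Gr1 antibodies bind, was at 1569 to 3727 TPM in WT and 2577 to 3253 TPM across G643W, a narrow range beside that of Ly6g. Ly6k, in the same cluster, had 41.7, 72.1 and 76.0 TPM across WT and 38.0, 5.72 and 1.88 TPM across G643W (log2 difference -2.16 ± 0.98, SE, edgeR adjusted p = 0.530).

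**Figure D4:**
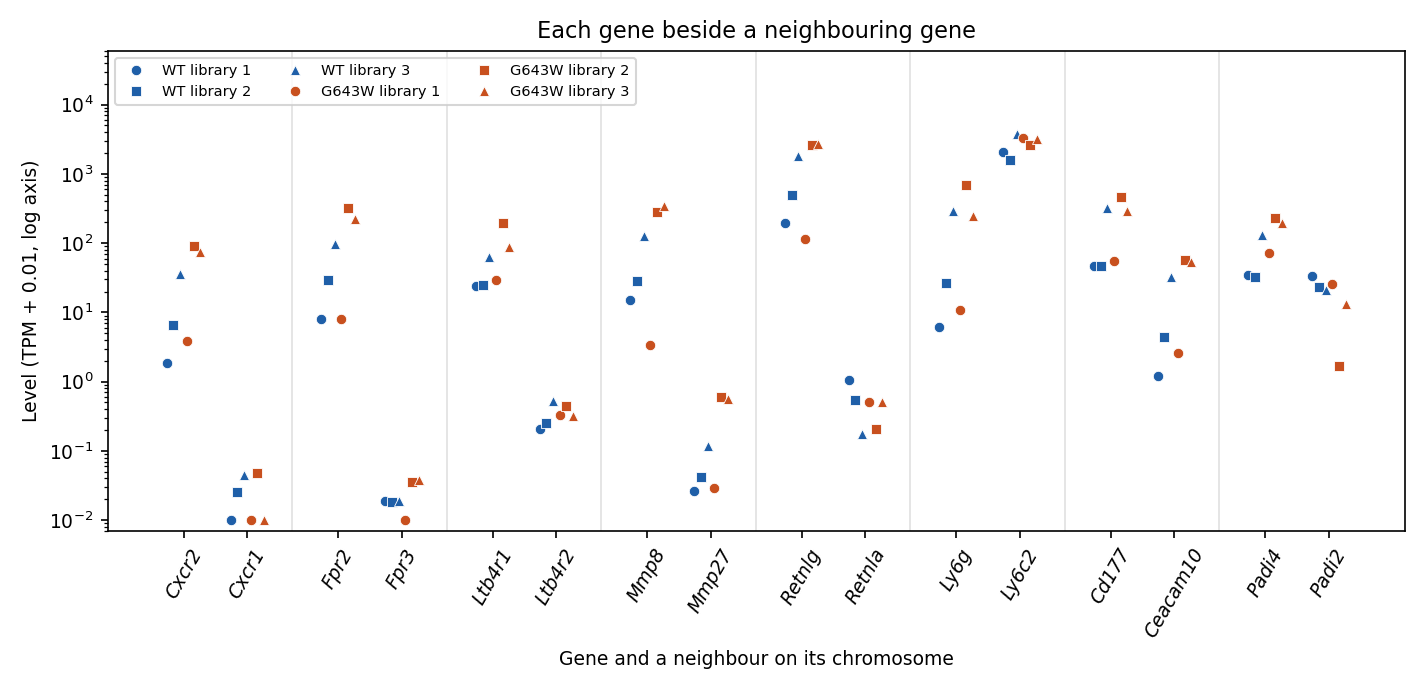
Level of 8 of the genes (left mark cluster of each pair) and of a neighbouring gene on the same chromosome (right), as TPM + 0.01 on a log axis, with colours for genotype and shapes for library number. Cxcr1, Fpr3, Ltb4r2, Mmp27 and Retnla lie at or under 1.04 TPM, Ceacam10 is highest in the libraries where Cd177 is highest, and Padi2 runs against Padi4 with its lowest value (1.69 TPM) in G643W library 2.

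Transcripts of Cxcr2 were not read in constant proportion. The annotation gives a spliced transcript of 2220 bases, with 3 exons, and a longer one of 3046 bases, which keeps the last intron and runs further. Of the reads given to Cxcr2, the spliced transcript took 2.13% (95% Wilson interval 1.33 to 3.38), 4.73% (4.02 to 5.57) and 17.8% (17.2 to 18.5) in WT libraries 1 to 3. In G643W libraries 1 to 3 it took 0.638% (0.336 to 1.21), 18.9% (18.6 to 19.3) and 23.4% (22.9 to 23.9). The 3 libraries with high Cxcr2 thus had the high shares, in both genotypes. These intervals cover counting error only, not the division of reads between transcripts by Salmon. By the spliced transcript alone, G643W library 1 had the lowest Cxcr2 level, 0.0359 TPM against 0.0604 TPM in WT library 1. Those values rest on 9 and 17 reads. The 828 bases found only in the longer transcript hold stretches with at least 90% identity over at least 150 bases to transcripts of 270 other genes, so reads of those genes may be counted in it, and their part in the low libraries was not tested. The search covered annotated GENCODE M21 transcripts on the same strand only. Within it, no gene of the 10 matched another gene over 50% or more of its main transcript at 95% identity or better. The longest match outside the gene itself was 82.3% identical for Ly6g (to Ly6a), 84.1% for Retnlg (to Retnla) and 81.5% for Fpr2 (to Fpr3). For Cd177 it was 96.0% identical, to Gm4763 over 303 bases. Besides Cxcr2, matches of at least 90% identity over at least 150 bases were found for Fpr2 (1 other gene) and Cd177 (2 other genes). They lay within bases 177 to 715 of the 883 of Fpr2 and bases 2415 to 2714 of the 2714 of Cd177. Whether reads were shared with those genes was not tested.

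**Figure D5:**
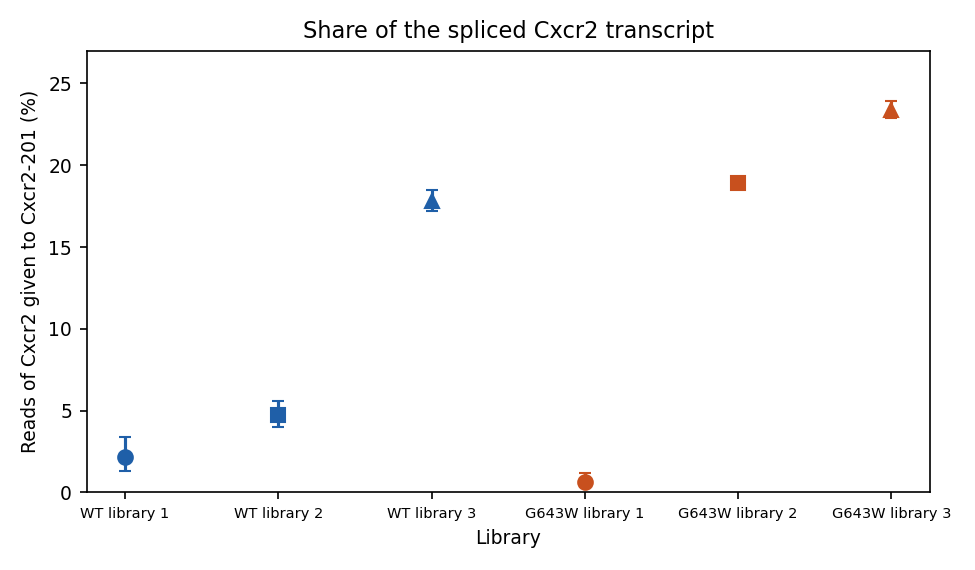
Share of the reads of Cxcr2 that were given to its spliced transcript in each library (percent), with 95% Wilson intervals as bars. WT library 3 and G643W libraries 2 and 3 lie between 17.8 and 23.4%, and the other 3 libraries below 5%.

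Markers of the cells in and outside the gate were read beside these results. Ptprc, which encodes CD45, was present throughout (49.3 to 160 TPM), while the progenitor factors Hoxa9 and Meis1 were under 0.1 TPM. Kit, a receptor of progenitors, ran from 2.12 TPM in WT library 1 to 35.9 TPM in G643W library 1, both low in the late genes. Of 8 progenitor and blast markers tested, none passed the test by edgeR, and the median log2 difference was -0.70. An unadjusted edgeR p under 0.05 was found for 3 of them, against 9.66% of all genes tested. Cd34, Flt3, Cd48 and Sox4 did not overlap between the genotypes in CPM and were lower in G643W. Counting both directions, 15.9% of all genes tested had no overlap. Of the 8 markers, 5 had a negative log2 difference and 3 a positive one, namely Kit, Ptprc and Meis1. Cd34, a surface protein of progenitors, had 64.7, 94.0 and 42.7 TPM across WT and 38.3, 5.82 and 19.9 TPM across G643W (log2 difference -1.89 ± 0.57, SE, edgeR adjusted p = 0.477). Flt3, another progenitor receptor, differed by -3.04 ± 0.61 on the log2 scale (SE, edgeR adjusted p = 0.298). All 8 monocyte markers had a negative log2 difference (median -1.64), where 49.2% of all genes tested had a positive one. None of the 8 passed the test by edgeR, and 5 had an unadjusted p under 0.05, against 9.66% of all genes tested. The summed level of the monocyte markers was 335 to 736 TPM in WT and 80.7 to 302 TPM across G643W. F13a1, a monocyte transglutaminase, had 144, 140 and 61.1 TPM across WT and 43.1, 10.8 and 36.1 TPM across G643W (edgeR adjusted p = 0.454), and Ms4a6c, the most abundant of the 8, differed by -1.47 ± 0.51 on the log2 scale (SE, edgeR adjusted p = 0.493). The lowest monocyte levels fell in G643W library 2, where Ly6g, Cxcr2 and Fpr2 were highest. The part of monocytic or progenitor cells in the differences of the late genes was not tested. Of other lineages, Cd3e (at most 0.219 TPM) and Epx (at most 0.0972 TPM), which define T cells and eosinophils, were near 0 in every library. Other genes on the marker lists were not: Hbb-bs reached 29.2 TPM, Cd79b ran from 8.31 to 16.2 TPM, Cd4 from 0.0604 to 8.67 TPM and Siglecf from 35.6 to 75.9 TPM. The lowest p of the erythroid, B cell and T cell lists belonged to Hba-a1 (log2 difference 1.07 ± 0.48), Cd79a (0.94 ± 0.43) and Cd3d (0.98 ± 0.48; SE, edgeR adjusted p = 0.527, 0.531 and 0.537), which reached 4.18, 0.726 and 3.09 TPM. The 7 macrophage markers summed to 98.4 to 205 TPM in WT and 85.5 to 169 TPM in G643W, with log2 differences of -3.16 ± 1.29 for C1qa and -0.06 ± 0.29 for Adgre1 (SE, edgeR adjusted p = 0.511 and 0.942). Itgam and Itgb2, the parts of Mac1, were highest in the same 3 libraries as the late genes, at 57.6, 46.8 and 199 TPM (Itgam) in WT and 61.8, 321 and 318 TPM across G643W, and the part of the sort gate was not tested either. Cebpe, the factor of secondary and late granule genes, had 14.8, 26.0 and 68.4 TPM across WT and 34.9, 174 and 82.8 TPM across G643W (log2 difference 1.40 ± 0.74, SE, edgeR adjusted p = 0.549), and Cebpa ran from 26.9 to 64.5 TPM in WT and from 5.93 to 59.0 TPM across G643W, lowest in G643W library 2. Of 12 granulocyte transcription factors 6 had a positive log2 difference, against 49.2% of all genes tested. Values were 0.02 ± 0.28 for Spi1 and -2.43 ± 1.17 for Klf2 (SE, edgeR adjusted p = 0.986 and 0.537).

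Libraries held 61167075 to 101189225 estimated reads, and the 10 genes together took 0.0724 to 0.84% of them. The smallest value was 163 reads, of Fpr1 in G643W library 1, and the largest 216696 reads, of Cd177 in G643W library 2.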

How the data were processed

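RNA sequencing covered 6 libraries of sorted blasts, 3 per Asxl1 genotype, made with a TruSeq V2 kit per the labels' protocols. The authors deposited 1 Salmon table per library. Per the submitters' processing notes the tools were Salmon 0.12.0 and bcl2fastq, with the builds mm10 and GRCm38.p6; its options, index and strand setting: not given in the sources used here. Each table, per the file headers, holds estimated counts and TPM by transcript, beside its length and effective length in bases. Reads that fit several transcripts are shared out by Salmon's model.

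Of 136288 transcripts, 136176 matched GENCODE M21 and were summed into 53458 genes, rounded to whole counts; the remaining 112 took up to 0.0365% of the reads of 1 library. After filterByExpr (minimum count 10) and TMM scaling, 20654 genes were tested with edgeR 4.0.16 in R 4.3.3 (glmQLFit, glmQLFTest, genotype only, two-sided), with Benjamini-Hochberg adjustment over all of them and a threshold of 0.05. The SE is the absolute log2 fold change over the square root of F, and 95% intervals use the fit's degrees of freedom. Profiles used log2 CPM with a prior count of 2. No library pair agreed within sampling noise. Sequence matches came from BLAST+ 2.17.0, run on the same strand against GENCODE M21 transcripts with a cap on matches per gene. Unannotated copies and antisense matches were not searched.

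The genes and lists were chosen with earlier results of these data known. Named were the 10 genes, per list the called genes or else the gene with the lowest p, its most abundant gene, and the 8 nearest profiles; other genes (scarce family members, ligands and markers, stefins called by DESeq2, and Alox5, Cd34, Cd48, Ceacam10, Cebpa, Cebpe, Itgam, Itgb2, Kit, Ltf, Sox4 and Timp1) were added after their values were seen. Alternatives were RLE or no scaling, no filter, length-scaled counts, DESeq2 1.42.0, limma 3.58.1 on log2(TPM + 1) and log2(TPM + 0.1), the replicate number as a block, and each library left out.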

Additional observations from a re-analysis of the deposited data

How the results depend on the processing

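No late neutrophil gene was called under any of the 14 alternatives, and all 140 log2 differences they gave for the 10 genes were positive (lowest adjusted p = 0.152). The count of all genes called, 25, moved to 16 without a scaling factor, 104 without a filter, 5 with length-scaled counts, 43 with limma on log2(TPM + 0.1) and 427 with DESeq2. Leaving out 1 library gave 0 to 16 genes. Of the pathway and stage genes, 0 as reported, DESeq2 called 4 (stefins) and the fits without 1 library 0 to 1, the 1 being Cxcl2 without G643W library 1; the causes were not tested. With the replicate number as a block 0 genes were called, with 1772 at an unadjusted edgeR p under 0.05. The labels do not say that the numbers pair the libraries, so they were not taken to do so. Deviations of same-numbered libraries from their group means correlated at 0.112, -0.165 and 0.176. WT library 2 correlated more with G643W library 1 (0.21) than with its own number. Deviations from a mean of 3 libraries are tied to one another, so these correlations cannot decide whether the libraries are paired. Each group had 3 libraries, and with their spread the 95% intervals of the 10 genes reached from -2.16 to 5.28.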
